A study of Mus musculus with 8 samples.

Results

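Col25a1 and the receptor tyrosine phosphatase genes Ptprs, Ptprd and Ptprz1 were followed as 4 of the 19465 genes that probes measured in 8 sections of embryonic mouse diaphragm, 1 section per embryonic sample. They were found by their symbols, and all 4 passed the filter on low counts in each of the comparisons below. The sections came from control embryos at E14.5 (3 sections) and E18.5 (2 sections), from CaV1.1 -/- embryos at E14.5 and E18.5 (1 section each) and from a bCat cKO embryo at E18.5 (1 section), and transcripts were counted by 10x Genomics Visium on formaldehyde-fixed, paraffin-embedded tissue. By the study's methods, control embryos had at least 1 expressing allele of CaV1.1 and of β-catenin, so that some may have been heterozygous. CaV1.1 -/- (dysgenic) embryos lack the voltage-gated calcium channel CaV1.1 of skeletal muscle in every cell. In the bCat cKO, floxed β-catenin is deleted by Cre under the HSA (skeletal actin) promoter, so that only muscle loses it and nerve, connective tissue and vessels keep it. The crosses that gave this embryo also carried a CaV1.1 null allele, and its CaV1.1 genotype is not given in the sources used here. Every mutant group is 1 section, and the mutants at E18.5 were compared with the same 2 controls.

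Col25a1 encodes collagen XXV, a membrane-spanning collagen of muscle whose outer part can be shed by furin and which motor axons need to grow into and branch within muscle. PTPσ (Ptprs) and PTPδ (Ptprd) belong, with LAR (Ptprf), to a family of receptor phosphatases that organise synapses, and they bind collagen XXV at the cell surface. Motor axons carry these receptors into the diaphragm, but their cell bodies lie in the spinal cord, so RNA in the sections comes largely from cells of the diaphragm itself. PTPζ (Ptprz1) is a chondroitin sulfate proteoglycan among the receptor phosphatases, known from glia, which binds pleiotrophin, contactins and tenascins. Nerve meets muscle fiber at the neuromuscular junction in the middle of the fiber, and the nuclei under it transcribe synaptic genes such as those of the acetylcholine receptor.

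By the GENCODE M21 annotation of GRCm38 (mm10), Col25a1 (ENSMUSG00000058897) lies on the plus strand at chr3:130131501-130599877 and spans 468.4 kb, and Ptprd (ENSMUSG00000028399) lies on the minus strand at chr4:75941238-78211961 and spans 2270.7 kb. Ptprs (ENSMUSG00000013236), on the minus strand at chr17:56412426-56476483, is the shortest of the 4 with 64.1 kb, and Ptprz1 (ENSMUSG00000068748), on the plus strand at chr6:22875502-23052916, spans 177.4 kb. RefSeq promoters of GRCm38.p6 were found for 3 of the 4 genes. The 250 bases before the start are shown for Col25a1 and Ptprz1, whose levels were highest at the muscle center, and for Ptprs, whose level was not, 5′ to 3′ on the strand of the gene. All were searched for the E-box CANNTG, bound by myogenic factors among others, and for the N-box CCGGAA of synaptic genes, on both strands. Ptprs has a second promoter in the table, chr17:56462222-56462471, minus strand, 14.3 kb inside the gene, which was searched too and is not printed. The windows shown are Col25a1 chr3:130180595-130180844, plus strand, a start 49.3 kb inside the GENCODE gene, Ptprz1 chr6:22875252-22875501, plus strand, and Ptprs chr17:56476481-56476730, minus strand. Capitals mark a run of 16 bases that occurs 2 times in the Col25a1 window, and the E-box matches of Ptprs.
Col25a1: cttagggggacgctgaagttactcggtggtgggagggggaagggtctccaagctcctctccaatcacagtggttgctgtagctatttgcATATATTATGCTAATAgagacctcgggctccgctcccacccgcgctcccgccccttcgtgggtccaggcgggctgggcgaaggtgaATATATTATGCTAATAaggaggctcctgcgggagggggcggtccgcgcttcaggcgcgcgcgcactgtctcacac
Ptprz1: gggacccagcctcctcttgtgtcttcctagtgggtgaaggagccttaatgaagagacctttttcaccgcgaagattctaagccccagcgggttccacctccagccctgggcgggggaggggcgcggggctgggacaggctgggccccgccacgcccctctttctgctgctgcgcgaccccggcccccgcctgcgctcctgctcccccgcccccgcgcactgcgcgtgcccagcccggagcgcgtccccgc
Ptprs: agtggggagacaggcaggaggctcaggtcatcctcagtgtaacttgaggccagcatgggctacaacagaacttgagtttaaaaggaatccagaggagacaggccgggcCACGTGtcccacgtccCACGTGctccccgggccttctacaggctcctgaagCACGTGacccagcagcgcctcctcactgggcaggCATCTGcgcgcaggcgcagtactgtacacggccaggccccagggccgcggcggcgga

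The run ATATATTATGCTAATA was found in 1 of 32851 promoter windows of this length when each was read on the strand of its gene, that of Col25a1. Neither the Col25a1 nor the Ptprz1 window holds an E-box or an N-box in these letters, and the same is true of the second Ptprs window. The Ptprs window shown holds 4 E-boxes and 0 N-boxes. Of all 32851 windows 66.2% hold an E-box and 12% an N-box in these letters. The GC content is 60.4% for Col25a1, 71.6% for Ptprz1, 64% for the Ptprs window shown and 64.8% for the second.

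The sections held 14179161 to 82859104 UMIs (distinct transcript tags), and 683 to 3460 spots per section had at least 1000 UMIs and were kept. Spots are 55 µm wide at a spacing of 100 µm and can each hold several cells. Muscle spots, 491 to 3092 per section, were those above Otsu's threshold for the mean of 9 muscle genes. The muscle center was the 15% of muscle spots highest for 8 endplate genes, the periphery the 15% highest for 4 myotendinous genes, and the rest is called intermediate. None of the 4 genes entered these scores. UMIs were summed per section and region and tested with edgeR's quasi-likelihood test, with p-values adjusted over all genes by Benjamini-Hochberg. Since each mutant group is 1 section, it was assumed to vary like the controls. Levels are CPM, UMIs relative to all UMIs of the sum, after TMM scaling of the fit concerned, unless raw CPM is named, and differences are on the log2 scale with their SE. E18.5 control 1 stood apart in 960 raw CPM of 5 cartilage genes in muscle spots, against at most 62.4 in the other sections. Scaling matters here because the 9 muscle genes took 2.16% to 2.74% of the UMIs of muscle spots in the E14.5 controls and 12.8% and 13.2% in the E18.5 controls, against 1.62% in CaV1.1 -/- at E14.5, 7.14% in CaV1.1 -/- at E18.5 and 10.52% in bCat cKO. Fewer cells of a type and less RNA per cell cannot be told apart in such sums, and probe counts do not compare levels between genes.

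The targeted genes were read first. Cacna1s, which encodes CaV1.1, stood in muscle at 16.5, 15 and 18.4 CPM in the E14.5 controls and 13.4 in CaV1.1 -/- at E14.5, a difference of -0.30 ± 0.14 SE, adjusted p = 0.34. At E18.5 it stood at 84.4 and 87.3 CPM in controls and at 29.7 in CaV1.1 -/- (-1.53 ± 0.15 SE, adjusted p = 0.00133). Ctnnb1, which encodes β-catenin, stood at 105 and 97.4 CPM in the E18.5 controls and 96.2 in bCat cKO (-0.07 ± 0.12 SE, adjusted p = 0.77). Where the probes lie relative to the mutated or deleted parts is not given in the sources used here, and other cells of a spot keep Ctnnb1, so these levels check neither label.

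Col25a1 passed the test in muscle in all 3 comparisons of genotype, higher in both CaV1.1 -/- sections and lower in bCat cKO, and it was highest at the muscle center. Ptprs was higher outside muscle than within it, and Ptprd had the largest difference with stage of the 4 genes. Ptprz1 was highest at the center and in spots rich in Schwann cell genes, and in muscle it was higher in CaV1.1 -/- at E18.5. From E14.5 to E18.5 all 4 genes passed the test in control muscle, 1 higher and 3 lower, where 65.6% of 14832 genes passed, 33.2% higher and 32.3% lower. For CaV1.1 -/- muscle 1 of the 4 passed at E14.5 (background, the share of all tested genes that passed, 2.08%) and 3 at E18.5 (background 25.7%), all higher, against 0.533% and 10.6% of all genes higher. In bCat cKO muscle 2 passed, 1 higher and 1 lower (background 8.8%, with 3.18% higher and 5.62% lower).

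**Figure D1:**
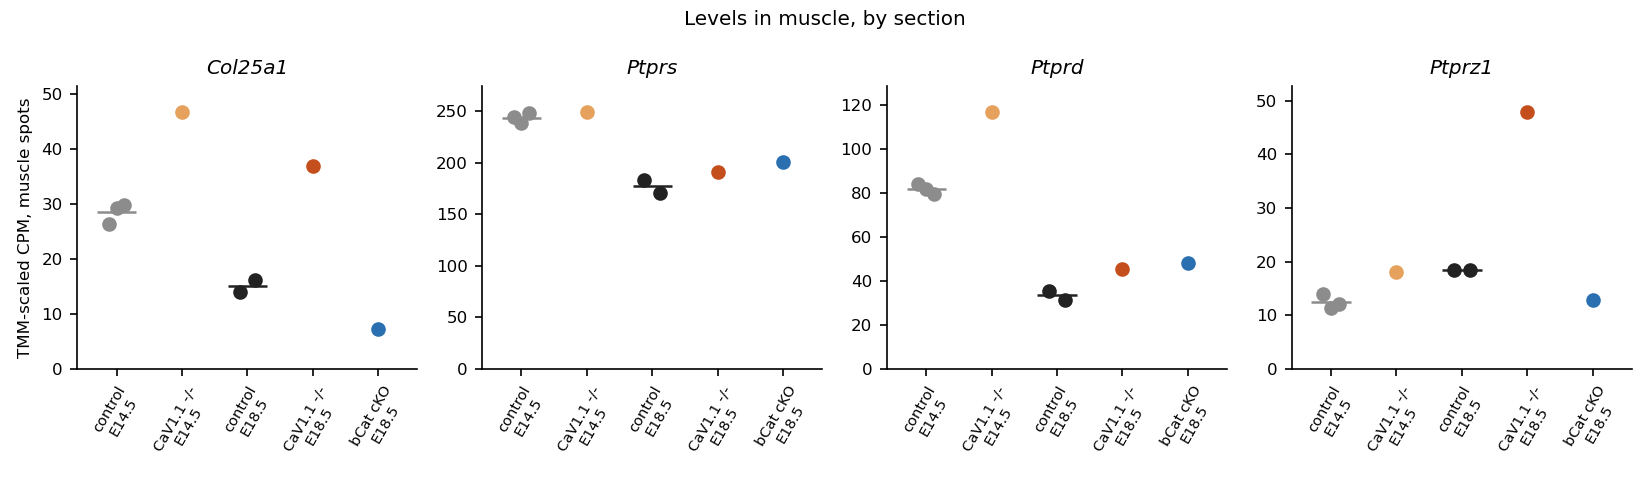
TMM-scaled CPM of the 4 genes in muscle spots (linear axis from 0), with 1 point per section and a line at the mean of the controls. Col25a1 stands at 46.7 and 36.8 in the CaV1.1 -/- sections, above all controls of their stage, and at 7.19 in bCat cKO, below them, while Ptprs stays between 171 and 249 throughout.

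Col25a1 levels in muscle were 26.3, 29.1 and 29.8 CPM in the 3 controls at E14.5, against 14 and 16.2 in the pair at E18.5. The groups did not overlap, and the level fell 1.88-fold with stage (-0.91 ± 0.11 SE, adjusted p = 0.000164). CaV1.1 -/- muscle held 46.7 CPM at E14.5, above all 3 controls (0.72 ± 0.13 SE, adjusted p = 0.0368). This call was lost without any of the 3 controls in turn (log2 difference 0.67 to 0.75) and with the replicate number as a block (0.84, adjusted p = 0.0978). At E18.5 CaV1.1 -/- muscle held 36.8 CPM, 2.44-fold above the controls (1.29 ± 0.14 SE, adjusted p = 0.00168). That section lay above the E14.5 controls as well. In bCat cKO muscle Col25a1 was at its lowest, with 7.19 CPM, 2.10-fold below the E18.5 controls (-1.07 ± 0.15 SE, adjusted p = 0.00866). With the replicate number as a block the difference was -0.97 (adjusted p = 0.0541), and with the 9 muscle genes as the scale it was -0.54 against a median of all genes of 0.52.

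Markers of other cells moved with the CaV1.1 -/- section at E18.5. Its muscle spots held 142 raw CPM summed over 6 Schwann cell genes against 35.7 and 35.9 in controls, 379 over 5 macrophage genes against 108 and 143, and 226 over 5 mesothelium genes against 46 and 145. The bCat cKO section stood at 35.1, 239 and 132 for the same lists. At E14.5 the sums were 63.2, 227 and 93.8 in CaV1.1 -/-, and in the controls they were 59, 48 and 53.7 for Schwann cells, 124, 122 and 137 for macrophages and 61.8, 91.4 and 80.4 for mesothelium. All genes of these 3 lists were detected in muscle of every section. Of 10 neuron genes, only Chat was at 0 in muscle, in 4 of the 8 sections, and their sum was 37.5 in CaV1.1 -/- at E18.5 against 21.2 and 43.6 in its controls. The part of these cells in the levels of Col25a1 was not tested. Without the 5% of spots ranked highest for Schwann cell genes Col25a1 differed by 1.36 in CaV1.1 -/- at E18.5 (adjusted p = 0.00161) and by -1.002 in bCat cKO (adjusted p = 0.0109).

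Within muscle, Col25a1 was enriched where endplate genes were high. In E14.5 controls 1, 2 and 3 the center held 49.6, 50.01 and 38.1 CPM and intermediate muscle 20.03, 25.4 and 29.1, a difference of 0.96 ± 0.10 SE, adjusted p = 2.57e-08. In the E18.5 controls the center held 38 and 42.4 CPM and intermediate muscle 8.81 and 9.73, a 4.33-fold difference (2.11 ± 0.11 SE, adjusted p = 1.49e-15). All 5 control sections had more at the center. Of the 4 genes 3 passed this test at E14.5, 2 higher and 1 lower (background 7.16% higher and 7.35% lower), and 2 at E18.5, both higher (background 12.1%, with 4.15% higher). The center held 35.3, 27.4 and 19.8% of the Col25a1 UMIs of muscle in the E14.5 controls, where it held 19.1, 16.7 and 15.9% of all UMIs of muscle. In the E18.5 controls the center held 43.9 and 42.6% of the Col25a1 UMIs and 15.2 and 15.8% of all UMIs.

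The enrichment was steeper at E18.5 than at E14.5 by 1.16 ± 0.15 SE, adjusted p = 1.32e-06, a comparison in which 3 of the 4 genes passed, all higher (background 12.9%, with 5.31% higher). Control 3 at E14.5 stood apart from the other sections, with a raw ratio of center to intermediate of 1.29 (95% counting interval 1.01 to 1.63) against 2.45 and 1.90 in controls 1 and 2. Without it the difference between stages was 1.01 (adjusted p = 7.13e-06). Chrna1, a gene that defines the center, had raw ratios of 1.97, 2.07 and 1.72 in E14.5 controls 1, 2 and 3. In the E18.5 controls its ratios were 5.38 and 5.65. The part of a sharper center at E18.5 in the Col25a1 result was not tested. The Col25a1 result belongs to spots chosen by endplate genes. When the center was taken as the 15% of muscle spots farthest from other tissue, Col25a1 differed from intermediate muscle by 0.34 at E14.5 and 0.47 at E18.5 (adjusted p = 0.435 and 0.367), and the stages by 0.13 (adjusted p = 0.979). In the E18.5 controls, muscle spots over 300 µm from other tissue held 93.9 and 91.8 raw CPM of Chrna1. The center by endplate score held a mean of 274. The spots over 300 µm numbered 1992 and 1584. The distance center was a smaller set, with 466 and 331 spots at least 800 and 1058.3 µm from other tissue. Its own Chrna1 level is not given here. How much of the endplates the distance center holds was not tested, so it does not decide where in muscle Col25a1 lies.

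**Figure D2:**
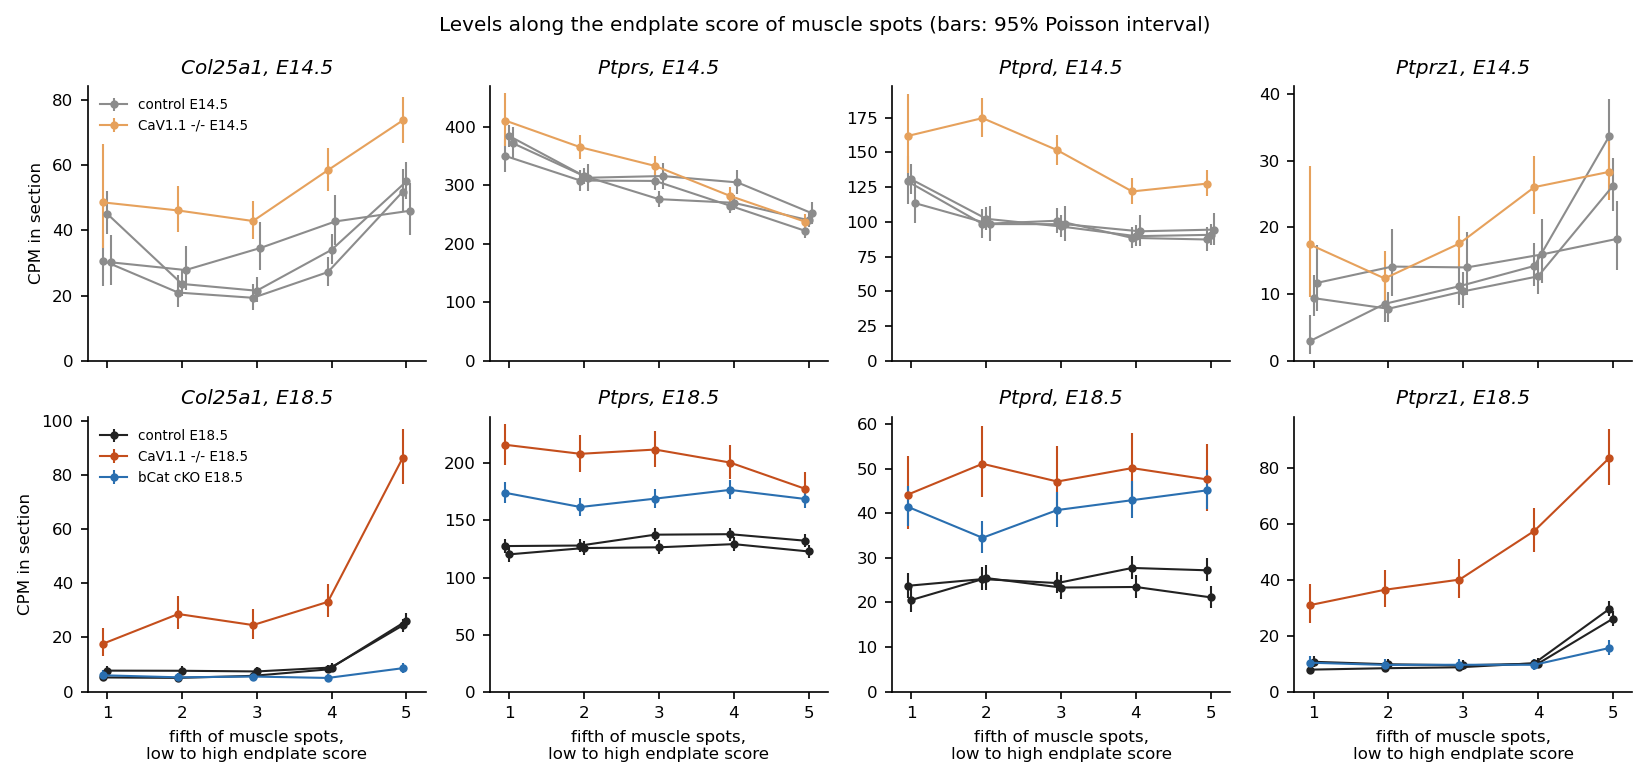
Raw CPM of the 4 genes (linear axes from 0) over 5 equal bins of the muscle spots of each section, ordered from low to high endplate score, with 95% Poisson intervals for counting error only. Col25a1 and Ptprz1 rise in the last bin of the E18.5 controls, from 8.22 to 24.4 and from 10.2 to 29.5 in control 1, and Ptprs falls along the score at E14.5.

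Along the endplate score the rise of Col25a1 was abrupt at E18.5. Over 5 equal bins of the muscle spots from the lowest to the highest score, E18.5 control 1 held 5.25, 5.09, 5.84, 8.22 and 24.4 raw CPM and control 2 7.76, 7.71, 7.47, 8.92 and 26.1. The last bin stood apart from the other 4 in both sections. In E14.5 control 1 the bins held 30.7, 20.9, 19.3, 27.2 and 51.8 raw CPM and in control 2 45.1, 23.6, 21.5, 34 and 55, lowest in the middle of the order. In control 3 the lowest bin held 30.2 and the highest 46. CaV1.1 -/- at E18.5 held 17.7, 28.7, 24.6, 33.1 and 86.2 raw CPM over the same bins, above both controls in each of them, with its highest value in the last. In bCat cKO the bins held 6.04, 5.30, 5.58, 5.07 and 8.66 raw CPM, so that the last stood much nearer to the others than in the controls.

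In CaV1.1 -/- at E18.5 Col25a1 was higher at the center and in intermediate muscle, and in bCat cKO it was lower at the center. In CaV1.1 -/- at E14.5 the center held 65.3 CPM, intermediate muscle 44.7 and the periphery 33.4. At E18.5 the same genotype held 93, 29 and 21.8 CPM for the same regions, and its center and intermediate muscle lay above both controls. In bCat cKO the 3 regions held 11.3, 5.81 and 10.2 CPM. Tested on center sums alone, Col25a1 was higher in CaV1.1 -/- at E18.5 by 1.24 ± 0.17 SE, adjusted p = 0.00133, and lower in bCat cKO by 3.55-fold (-1.83 ± 0.21 SE, adjusted p = 0.000444). At the center 3 of the 4 genes passed in each of these comparisons, all higher in CaV1.1 -/- (background 12.1%, with 4.31% higher) and 1 higher and 2 lower in bCat cKO (background 11.1%, with 3.76% higher and 7.36% lower). In intermediate muscle it was higher in CaV1.1 -/- by 1.64 ± 0.21 SE, adjusted p = 0.00232, while bCat cKO missed the threshold (-0.67 ± 0.23 SE, adjusted p = 0.119). With regions set by distance from other tissue the latter was -1.36 and passed (adjusted p = 0.0169). In intermediate muscle set by the gene scores, 3 of the 4 genes passed in CaV1.1 -/- at E18.5, all higher (background 28.3%, with 12% higher). With the same regions 1 passed in bCat cKO, higher (background 8.03%, with 3.09% higher). At E14.5 CaV1.1 -/- differed by 0.47 ± 0.16 SE, adjusted p = 0.19 at the center, where 0 of the 4 genes passed (background 1.79%; 2, Col25a1 and Ptprd, had an unadjusted p under 0.05, and 0 passed with DESeq2), and by 0.85 ± 0.19 SE, adjusted p = 0.0772 in intermediate muscle, where 1 passed, higher (background 1.81%, with 0.428% higher).

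Whether the ratio of center to intermediate itself differed by genotype was tested as an interaction. For Col25a1 it differed by -0.41 ± 0.17 SE, adjusted p = 0.623 in CaV1.1 -/- at E14.5, by -0.43 ± 0.20 SE, adjusted p = 0.305 in CaV1.1 -/- at E18.5 and by -1.15 ± 0.28 SE, adjusted p = 0.0667 in bCat cKO. None of these 3 passed, so an unequal change of center and intermediate was not shown for this gene. Their unadjusted 95% intervals were -0.75 to -0.058, -0.84 to -0.027 and -1.73 to -0.58. With no filter on low counts the call in bCat cKO was made (-1.15, adjusted p = 0.000249). Over all alternatives the difference in bCat cKO ran from -1.20 to 0.45, so its direction was not kept in each of them. Over all members 0 passed in CaV1.1 -/- at E14.5 (edgeR, background 0.0423%, where 2, Col25a1 and Ptprz1, had an unadjusted p under 0.05 and 0 passed with DESeq2), 1 in CaV1.1 -/- at E18.5 (background 3.31%) and 1 in bCat cKO (background 0.367%), both Ptprz1 and both lower (0.819% and 0.296% of all genes lower).

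**Figure D3:**
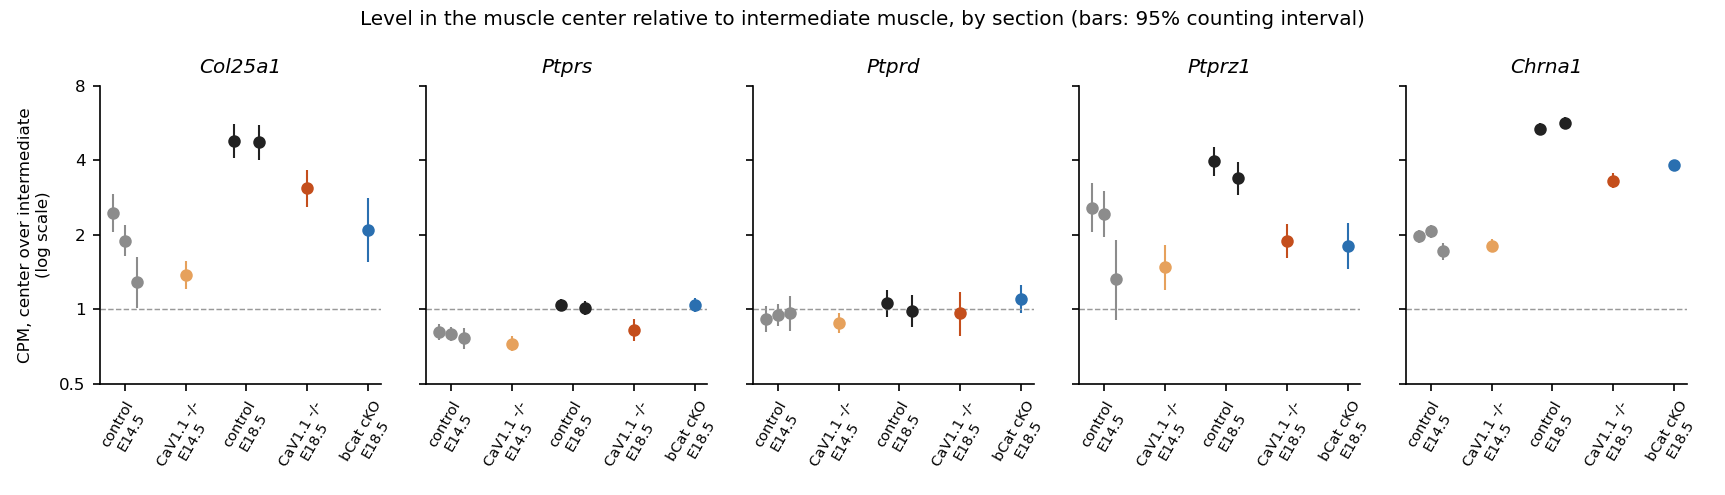
Raw CPM at the muscle center divided by that of intermediate muscle, per section, on a log axis, with 95% counting intervals and a dashed line at 1. Chrna1, a gene that defines the center, is drawn for scale, and Col25a1 reads 4.80 and 4.74 in the E18.5 controls, 3.08 in CaV1.1 -/- and 2.10 in bCat cKO.

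**Figure D4:**
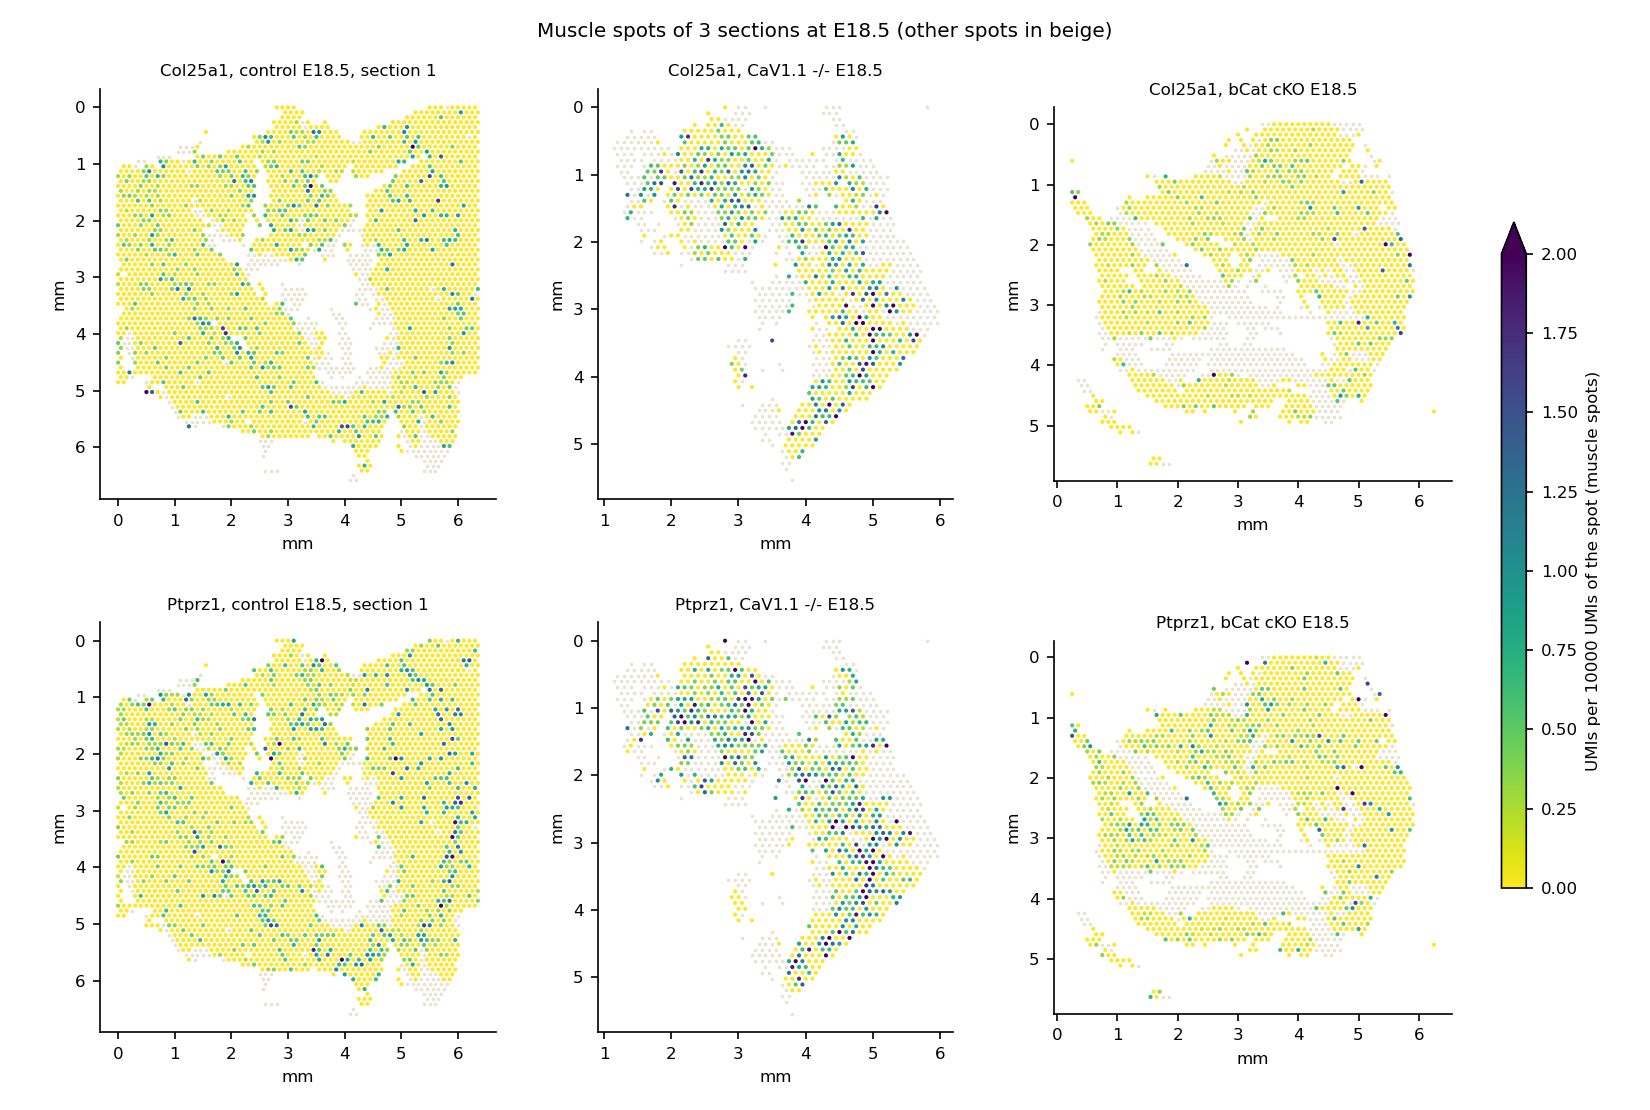
Muscle spots of E18.5 control 1, CaV1.1 -/- and bCat cKO at their positions in mm, colored by UMIs of Col25a1 (upper row) or Ptprz1 (lower row) per 10000 UMIs of the spot, with colors ending at 2 and other spots in beige. Positive spots are sparse and form bands in the control and cover more of the muscle in CaV1.1 -/-, where muscle as a whole held 14 and 36.8 CPM of Col25a1 and 18.4 and 48 of Ptprz1, and are few for Col25a1 in bCat cKO.

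At the periphery, where fibers meet tendon, Col25a1 held 26.9, 26.1 and 26.4 CPM in the E14.5 controls and did not pass against intermediate muscle (0.10 ± 0.13 SE, adjusted p = 0.725, 95% interval -0.16 to 0.36). In the E18.5 controls it held 12 and 18.1 CPM and was higher than intermediate muscle by 0.67 ± 0.15 SE, adjusted p = 0.000523. This rested on control 2, since the difference was 0.45 (adjusted p = 0.135) without it, and on the choice of spots by myotendinous genes, since it was 0.095 for spots within 150 µm of other tissue. At the periphery 1 of the 4 genes passed at E14.5, higher (background 7.66%, with 3.21% higher), and 3 at E18.5, all higher (background 30.8%, with 11.3% higher).

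Col25a1 was not confined to muscle spots. Spots outside muscle held 24.4, 30.1 and 29.2 CPM at E14.5, where muscle spots held 29.9, 33.6 and 33.9 on the same scale (0.22 ± 0.11 SE, adjusted p = 0.166, 95% interval -0.044 to 0.48). At E18.5 other spots held 8.71 and 15 and muscle spots 16.1 and 19 CPM (0.59 ± 0.15 SE, adjusted p = 0.0119), but taking the upper 50% of spots as muscle gave -0.088 (adjusted p = 0.483). The call was also lost without E18.5 control 1 (0.30). Without scaling, muscle spots of E18.5 control 1 held 92.6% of the Col25a1 UMIs and 91.5% of all UMIs. In E18.5 control 2 they held 87.3% and 90.1%, so there raw CPM was lower in muscle than outside it. Of the 4 genes 1 passed at E14.5, lower in muscle (background 37.4%, with 15.6% lower), and 3 at E18.5, 1 higher and 2 lower in muscle (background 53.2%, with 29.1% higher and 24.1% lower). In bCat cKO the order was the other way, with 8.24 CPM in muscle and 15 in other spots.

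Ptprs was the member with the steadiest level in muscle. It held 244, 238 and 248 CPM in the E14.5 controls and 183 and 171 in the E18.5 controls, which did not overlap (-0.46 ± 0.088 SE, adjusted p = 0.0023). CaV1.1 -/- at E14.5 held 249 CPM (0.034 ± 0.11 SE, adjusted p = 0.916, 95% interval -0.22 to 0.29). At E18.5 CaV1.1 -/- held 191 CPM and bCat cKO 200.5, both above the controls, with differences of 0.11 (95% interval -0.16 to 0.38, adjusted p = 0.521) and 0.18 (95% interval -0.091 to 0.45, adjusted p = 0.383). No genotype comparison in muscle passed for Ptprs under TMM scaling. Scaled to total UMIs, its differences at E18.5 were 0.65 and 0.40 and passed, where the medians of all genes moved to 0.54 and 0.21.

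The place of Ptprs in muscle was opposite to that of Col25a1 at E14.5. The center held 206, 200.05 and 202 CPM in the E14.5 controls, intermediate muscle 251, 243 and 259.8 and the periphery 275, 279 and 258. The center was lower than intermediate muscle in all 3 sections (-0.31 ± 0.047 SE, adjusted p = 1.18e-05). The 5 tendon genes, all detected, moved the same way, with 259, 273 and 269 raw CPM at the center and 412, 521 and 529 in intermediate muscle of these sections, and their part in the result was not tested. Along the endplate score Ptprs fell from 350.2 to 222.4, from 384 to 240.4 and from 372 to 252 raw CPM between the lowest and highest bin of controls 1, 2 and 3, and from 411 to 238 in CaV1.1 -/- at E14.5. In the E18.5 controls the center held 171 and 158 CPM and intermediate muscle 184 and 169, and the difference missed the threshold (-0.10 ± 0.053 SE, adjusted p = 0.264). Raw ratios of center to intermediate were 1.04 and 1.01 in E18.5 controls 1 and 2, so the sign at E18.5 depends on the scaling. The ratio of center to intermediate was higher at E18.5 than at E14.5 by 0.21 ± 0.071 SE, adjusted p = 0.0498. This call was lost under DESeq2 and without any 1 of the 5 control sections. By distance from other tissue, the difference at the center was lost at E14.5 (-0.012, adjusted p = 0.983), and the periphery was higher by 0.33 (adjusted p = 0.00119). With myotendinous spots as the periphery the difference was 0.12 ± 0.046 SE, adjusted p = 0.121 at E14.5 and 0.22 ± 0.051 SE, adjusted p = 0.00102 at E18.5, the latter lost without E18.5 control 2 (0.16).

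Outside muscle Ptprs was higher than within it. Other spots held 389.8, 431 and 459 CPM and muscle spots 277, 275 and 282 in the E14.5 controls (-0.61 ± 0.077 SE, adjusted p = 0.00105 for muscle against other), and 309.97 and 350.2 against 211 and 200.5 in the E18.5 controls (-0.68 ± 0.094 SE, adjusted p = 0.000771). Every control section had the same order. In the 5% of spots ranked highest for tendon genes, Ptprs held 509, 413, 478, 341 and 402 CPM in E14.5 controls 1, 2 and 3 and E18.5 controls 1 and 2, against 300.8, 298, 285, 198 and 194 in all other spots (0.76 ± 0.11 SE, adjusted p = 0.000397). Of the 4 genes 2 passed for tendon, both higher (background 33.6%, with 13.4% higher). In the 5% ranked highest for mesothelium, the lining of the body cavities, it held 422, 394, 289, 305 and 241 against 304, 303, 297, 201.3 and 205 CPM (0.34 ± 0.10 SE, adjusted p = 0.0263). E14.5 control 3 was the exception, with less in the mesothelium-ranked spots, and the call was lost without E14.5 control 1 or 2 (0.31 and 0.33). There 2 of the 4 genes passed, Ptprs higher and Col25a1 lower (background 30.3%, with 11.9% higher and 18.4% lower). Ranked spots were not confined to tissue outside muscle. Over the 5 controls, muscle spots made up 7.32 to 23.1% of tendon-ranked and 23.1 to 76.2% of mesothelium-ranked spots. In E14.5 control 3 the mesothelium share was 58.8%. For endothelium the shares were 39.02 to 80.95%, and for Schwann cell genes 65.9 to 91.2%.

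Ptprd showed the largest change with stage of the 4 genes. It held 84, 81.8 and 79.6 CPM in muscle of the E14.5 controls and 35.5 and 31.2 in the E18.5 controls, 2.45-fold less (-1.29 ± 0.088 SE, adjusted p = 1.06e-05). All 3 sections of the earlier stage lay above both sections of the later stage. In the mutants it was higher than in controls of the same stage, with 117 CPM in CaV1.1 -/- at E14.5 (0.52 ± 0.10 SE, adjusted p = 0.054), 45.5 in CaV1.1 -/- at E18.5 (0.45 ± 0.11 SE, adjusted p = 0.0266) and 48.1 in bCat cKO (0.53 ± 0.11 SE, adjusted p = 0.0299). The first of these missed the threshold and the other two passed. Each of the latter rested on 1 control section, since without E18.5 control 2 they were 0.36 and 0.44 (adjusted p = 0.0673 and 0.0749), and with the replicate number as a block 0.39 and 0.47 (adjusted p = 0.0667 and 0.0986).

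Ptprd was higher at the muscle periphery than in intermediate muscle and did not pass at the center. The center held 77.9, 79.5 and 77.5 CPM in the E14.5 controls against 83.8, 80.5 and 79.1 in intermediate muscle, and 33.3 and 28.8 against 35.1 and 31.7 in the E18.5 controls. Neither difference passed (-0.053, 95% interval -0.17 to 0.061, and -0.10, 95% interval -0.25 to 0.047). The periphery, with 96.9, 97.5 and 88.8 CPM at E14.5 and 41.9 and 34.6 at E18.5, was higher than intermediate muscle by 0.23 ± 0.057 SE, adjusted p = 0.00899 and by 0.20 ± 0.07 SE, adjusted p = 0.0275. Both were lost under DESeq2 and without 1 of the controls (the first without E14.5 control 1 or 2, the second without either E18.5 control), and by distance the difference at E18.5 was -0.023. Outside muscle Ptprd held 93, 111 and 102 CPM in the E14.5 controls against 95.2, 94.2 and 90.5 in muscle on the same scale (-0.12 ± 0.076 SE, adjusted p = 0.239), and 52.8 and 42.7 against 40.9 and 36.6 in the E18.5 controls (-0.30 ± 0.094 SE, adjusted p = 0.0326). The latter call was lost under DESeq2 and without either E18.5 control (-0.26 and -0.39). Tendon-ranked spots held 89.1, 112, 114, 64.5 and 55 CPM in the 5 controls in the order above, against 90.7, 93.8, 88.3, 37.5 and 33.2 in all other spots (0.44 ± 0.13 SE, adjusted p = 0.0201). Along the endplate score Ptprd went from 129 to 87.3, from 131 to 90.7 and from 113 to 94.4 raw CPM between the lowest and highest bin of the E14.5 controls. For tendon-ranked spots E14.5 control 1 did not share the direction, and the call was lost without E18.5 control 1 (0.37).

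In the center of the mutants at E18.5 Ptprd was higher than in controls, with 46.5 CPM in CaV1.1 -/- and 49.9 in bCat cKO (0.61 ± 0.16 SE, adjusted p = 0.0289 and 0.68 ± 0.14 SE, adjusted p = 0.00852 on center sums alone), as it was in intermediate muscle (0.47 ± 0.11 SE, adjusted p = 0.0198 and 0.54 ± 0.11 SE, adjusted p = 0.027). Without E18.5 control 2 the call remained for the center of bCat cKO alone. Both center calls were lost with DESeq2 (0.60 and 0.69) and with regions by distance (0.60 and 0.45). In CaV1.1 -/- at E14.5 the center held 110.1 CPM and intermediate muscle 118 (0.48 ± 0.12 SE, adjusted p = 0.0744 and 0.53 ± 0.10 SE, adjusted p = 0.0494), and the second of these calls was lost without any 1 of the 3 controls (0.52 to 0.56). The ratio of center to intermediate did not pass for Ptprd in any genotype.

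Ptprz1 was higher at E18.5 than at E14.5 relative to the other genes. In muscle it held 14, 11.3 and 12.1 CPM in the E14.5 controls and 18.4 and 18.4 in the E18.5 controls (0.56 ± 0.11 SE, adjusted p = 0.00319). This direction depends on the scaling. In raw CPM the same sections held 16.1, 13.7 and 15 and 13.3 and 13.4, and scaled to total UMIs the difference was -0.16 (adjusted p = 0.201), where the median of all genes moved to -0.73. With the upper 50% of spots as muscle it was 0.091 (adjusted p = 0.561).

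By genotype Ptprz1 stood out in CaV1.1 -/- at E18.5, with 48 CPM against 18.4 and 18.4 in controls, 2.61-fold more (1.39 ± 0.15 SE, adjusted p = 0.00166). CaV1.1 -/- at E14.5 held 18.1 CPM, above all controls of its stage (0.54 ± 0.14 SE, adjusted p = 0.119), and bCat cKO held 12.9, below its controls (-0.51 ± 0.16 SE, adjusted p = 0.0861). Neither of the latter passed. The summed Schwann cell genes were higher in the same CaV1.1 -/- section (142 against 35.7 and 35.9 raw CPM, all 6 detected), and their part in the level of Ptprz1 was not tested beyond leaving out the 5% of spots ranked highest for them, after which the difference was 1.39 (adjusted p = 0.00174). In intermediate muscle the difference was 1.74 ± 0.16 SE, adjusted p = 0.000999 and at the center 1.005 ± 0.23 SE, adjusted p = 0.0172.

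At the center Ptprz1 held 30.01, 23.9 and 15.8 CPM in the E14.5 controls against 11.499, 9.47 and 11.7 in intermediate muscle (1.19 ± 0.14 SE, adjusted p = 2.89e-07), and 47 and 41.9 against 13.2 and 13.5 in the E18.5 controls (1.74 ± 0.11 SE, adjusted p = 1.08e-13). All 5 control sections had more at the center, though in E14.5 control 3 the raw ratio was 1.33 with a counting interval of 0.903 to 1.91. The Schwann cell genes were also higher there, with 84.6, 72 and 60.3 raw CPM at the center of the E14.5 controls against 56, 44.1 and 54.3 in intermediate muscle, and 62.5 and 71 against 30.9 and 29.6 in the E18.5 controls. Their part in the result was not tested, and without the spots ranked highest for Schwann cell genes the center was higher by 1.22 at E14.5 and 1.59 at E18.5 (adjusted p = 3.14e-07 and 2.33e-12). By distance from other tissue Ptprz1 at the center differed by 0.43 and -0.042 and did not pass. How much of the endplates that center holds was not tested.

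The contrast of center with intermediate was less steep for Ptprz1 in both mutants at E18.5. Chrna1, a gene that defines the center, moved the same way. Its raw ratio of center to intermediate was 3.32 in CaV1.1 -/- and 3.82 in bCat cKO, against 5.38 and 5.65 in the E18.5 controls. The part of a less sharp center in the Ptprz1 result was not tested. For Ptprz1, CaV1.1 -/- held 87.7 CPM at the center and 44.5 in intermediate muscle, and bCat cKO 20.9 and 12.5. Both regions of CaV1.1 -/- lay above the controls, whereas in bCat cKO the center lay well below them and intermediate muscle just below (-1.09 ± 0.26 SE, adjusted p = 0.0192 at the center, -0.094 ± 0.17 SE, adjusted p = 0.783 in intermediate muscle). The call at the bCat cKO center was lost with regions by distance (-0.11, adjusted p = 0.834) and with the 9 muscle genes as the scale (-0.53). The ratio of center to intermediate was lower by -0.76 ± 0.20 SE, adjusted p = 0.0262 in CaV1.1 -/- and by -1.001 ± 0.23 SE, adjusted p = 0.0428 in bCat cKO, and it was higher at E18.5 than at E14.5 in controls by 0.55 ± 0.18 SE, adjusted p = 0.0334. All 3 calls were lost without the Schwann-ranked spots, with differences of -0.54, -0.97 and 0.37 (adjusted p = 0.207, 0.0813 and 0.227), and their signs turned when regions were set by distance. The periphery held 4.37, 6.57 and 10.9 CPM in the E14.5 controls and 12.4 and 16.4 in the E18.5 controls and did not pass against intermediate muscle (-0.61, 95% interval -1.06 to -0.15, and 0.094, 95% interval -0.21 to 0.39).

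In the spots ranked highest for Schwann cell genes, Ptprz1 held 61.9, 41.7, 13.4, 57.4 and 58.5 CPM in E14.5 controls 1, 2 and 3 and E18.5 controls 1 and 2, against 13.7, 10.55, 12.7, 17.1 and 19.3 in all other spots. This was 3.25-fold more (1.70 ± 0.18 SE, adjusted p = 0.00218), and 4 of the 5 sections showed it clearly while E14.5 control 3 did not. Col25a1 was higher in the same spots, with 33.9, 36.3, 42.9, 26.8 and 27.6 against 26.6, 31, 32.1, 12.7 and 15.4 CPM in the same order (0.60 ± 0.13 SE, adjusted p = 0.0492), higher in 5 of 5 sections, but the call was lost without E14.5 control 1, E14.5 control 3 or E18.5 control 1 (log2 difference 0.66, 0.62 and 0.45). The endplate gene Chrna1 stood in the Schwann-ranked spots at 250.4, 238 and 237 raw CPM in the E14.5 controls and 178 and 184 in the E18.5 controls, against 206, 173 and 251 and 79.7 and 77.6 in all kept spots, and the part of endplates in the levels of Col25a1 and Ptprz1 there was not tested. Of the 4 genes these 2 passed, both higher, where 1.77% of genes passed and 1% were higher. Outside muscle as a whole Ptprz1 held 17.5, 11.3 and 7.15 CPM in the E14.5 controls and 24 and 42.5 in the E18.5 controls, against 15.9, 13 and 13.8 and 21.2 and 21.5 in muscle on the same scale, and neither difference passed (0.17 ± 0.22 SE, adjusted p = 0.57 and -0.60 ± 0.23 SE, adjusted p = 0.0602). In Schwann-ranked spots Ptprs and Ptprd did not pass (95% interval -0.10 to 0.32 and -0.25 to 0.10).

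Col25a1 was lower in spots rich in vessels or mesothelium. Endothelium-ranked spots held 18.9, 20.6, 20.1, 12 and 11.505 CPM in the 5 controls against 27.1, 31.9, 33.3, 14.1 and 17.1 in all other spots (-0.53 ± 0.12 SE, adjusted p = 0.019), the only member of the 4 that passed there (background 9.88%, with 6.04% lower). Mesothelium-ranked spots held 21.7, 17.1, 25.4, 8.62 and 9.09 against 27.4, 32.5, 33.3, 14.4 and 17.4 CPM (-0.68 ± 0.14 SE, adjusted p = 0.00505). Both were lower in 5 of 5 sections. The first call was lost without E14.5 control 1 or either E18.5 control (log2 difference -0.53, -0.60 and -0.50), and the second when 10% of spots were taken (-0.33, adjusted p = 0.0562).

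**Figure D5:**
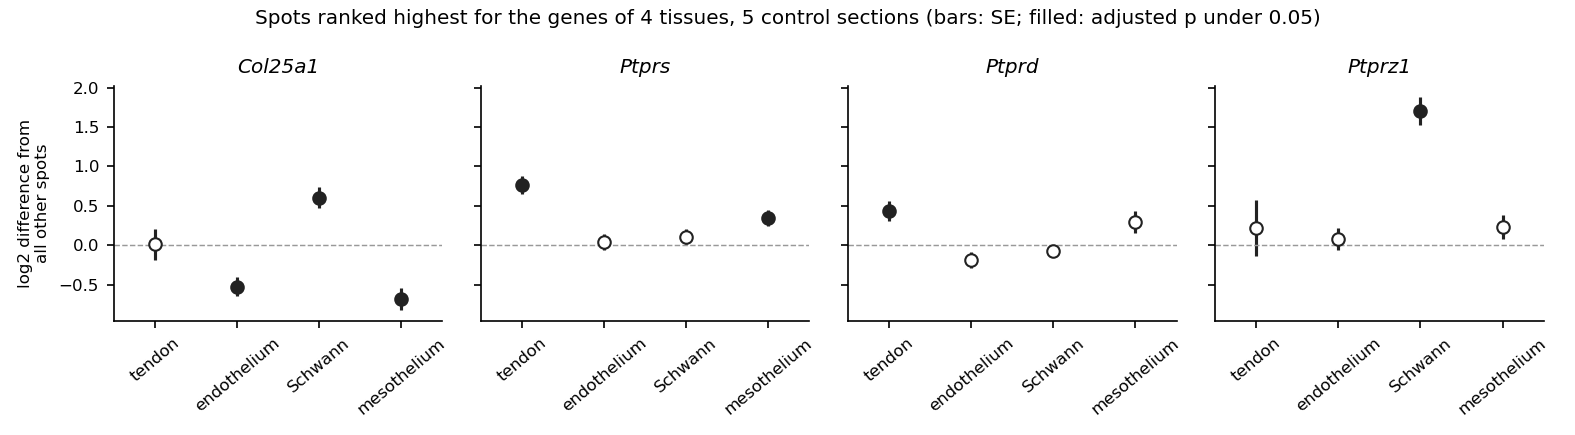
Difference on the log2 scale, with its SE, between the 5% of spots ranked highest for genes of a tissue and all other spots in the 5 control sections, for each of the 4 genes. Filled points passed the test, among them Ptprz1 in Schwann-ranked spots at 1.70 and Ptprs in tendon-ranked spots at 0.76.

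The partners of these proteins were read from 4 lists. Of the other receptor tyrosine phosphatases, 18 genes of which 17 were measured, 4 rose and 5 fell of 16 tested with stage in control muscle, where 33.2% of all genes rose and 32.3% fell (median -0.15, all genes -0.014). Ptprb, the phosphatase of endothelium, rose with stage by 2.64, Ptprm by 0.49, while Ptprk fell (-0.80) as did Ptprf, the third member of the Ptprs family (-0.64). In CaV1.1 -/- muscle at E18.5, 5 rose and 1 fell of 16 tested (background 25.7%, median 0.61, all genes 8.1e-05), and in bCat cKO 2 rose and 1 fell of 16 tested (background 3.18% higher and 5.62% lower, median 0.24, all genes -0.0055). Ptprf held 35.7 and 42.2 CPM in the E18.5 controls, 63.6 in CaV1.1 -/- and 61 in bCat cKO, higher in both mutants (0.71 ± 0.14 SE, adjusted p = 0.0102 and 0.65 ± 0.14 SE, adjusted p = 0.0293). Ptprb was lower in each mutant section (-1.08 and -0.87 in CaV1.1 -/- at E14.5 and E18.5, and -1.11 in bCat cKO), and it was the single gene of the list to pass in CaV1.1 -/- at E14.5 (background 2.08%). Ptprj rose in CaV1.1 -/- at E18.5 (0.93) and was higher at the center of the E18.5 controls (0.85 ± 0.097 SE, adjusted p = 7.76e-08), where it was the single gene of the list to pass (background 12.1%).

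Of 27 partners of the Ptprf, Ptprs and Ptprd family, 8 rose and 11 fell of 27 tested with stage (median -0.29, background 65.6%). Among them the heparan sulfate carriers Sdc4 and Gpc4 rose (2.04 and 1.103) and Sdc1 fell (-0.83), and Ntrk3, the neurotrophin-3 receptor, fell (-0.97). In CaV1.1 -/- at E18.5 5 rose and 3 fell (background 25.7%, median 0.067), with Ntrk3 higher (0.74) and the glypican Gpc1 and the exchange factor Trio lower (-0.66 and -0.49). In bCat cKO 3 rose and 2 fell (background 8.8%, median 0.0027), led by the liprin Ppfia4 (0.91) and by Gpc4 (-0.77). Gpc4 was higher at the center at both stages (0.44 at E14.5 and 0.19 at E18.5), where 3 of 26 rose and 3 fell at E14.5 (background 7.16% higher and 7.35% lower) and 3 rose and 1 fell at E18.5 (background 12.1%).

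Of 9 ligands and partners of Ptprz1, 2 rose and 3 fell of 8 tested with stage (median -0.046, background 65.6%). Ptn, which encodes the ligand pleiotrophin, held 1205, 1203 and 1289 CPM in muscle of the E14.5 controls and 313 and 339 in the E18.5 controls (-1.92 ± 0.11 SE, adjusted p = 5.68e-06). It stood at 820.2 CPM in CaV1.1 -/- and 556 in bCat cKO at E18.5, above both controls (1.33 ± 0.14 SE, adjusted p = 0.00148 and 0.77 ± 0.14 SE, adjusted p = 0.0182). In CaV1.1 -/- 2 of the 8 rose and 1 fell at E18.5 (background 25.7%), and 0 rose and 1 fell at E14.5 (background 2.08%), the gene that fell at both stages being Tnc, tenascin C (-1.42 at E18.5). In bCat cKO 2 rose and 0 fell (background 8.8%). At the center of the E14.5 controls Ptn was lower (-0.43) and Ncam1, a cell adhesion molecule of muscle and nerve, higher (0.24). There 2 of the 8 were higher and 2 lower (background 7.16% higher and 7.35% lower).

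Among the other membrane collagens and Furin, 4 genes, 3 rose and 1 fell of 4 tested with stage (background 65.6%). Col23a1 held 24.5, 20.7 and 24.5 CPM in muscle of the E14.5 controls and 60.5 and 65.8 in the E18.5 controls, and Col13a1, a collagen of the neuromuscular junction, 50.2, 40.8 and 65.1 and 16.8 and 21.8 (1.45 ± 0.10 SE, adjusted p = 1.26e-05 and -1.42 ± 0.21 SE, adjusted p = 0.000515). Both were higher at the center of the E18.5 controls (0.96 and 1.09), as was Col25a1. Of the 4 genes of the list 2 passed at that center, both higher (background 12.1%, with 4.15% higher). At the center of the E14.5 controls 1 was higher and 1 lower (background 7.16% higher and 7.35% lower). Col13a1 was higher in CaV1.1 -/- at E18.5 (43.9 CPM, 1.18 ± 0.26 SE, adjusted p = 0.0157) and Furin lower (-0.60). In bCat cKO Col23a1 held 20.1 CPM, below both controls (-1.65 ± 0.15 SE, adjusted p = 0.00194). Of the 4 genes, 1 rose and 1 fell in bCat cKO (background 8.8%), and 1 rose and 1 fell in CaV1.1 -/- at E18.5 (background 25.7%).

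The genes most alike each member were read from log2 CPM over the 24 sums of center, intermediate and periphery in the 8 sections, among 11028 genes. The 24 sums share sections, stages and depth, so r is a description. Most like Col25a1 were Plcxd2 (r = 0.89), Sh3gl3 (0.87) and Ajap1 (0.87). Most like Ptprz1 were Fabp7 (0.94), Ednrb (0.93) and Plekhb1 (0.92), and most like Ptprs were Epha4 (0.94), Cacna1g (0.92) and 6330403K07Rik (0.92). Many genes followed Ptprd closely, led by Haus3 (0.98), Fmr1 (0.98) and Pabpc1 (0.98). Among the 6 pairs of members Ptprs and Ptprd were most alike (0.80), Ptprs and Ptprz1 the least (-0.72), and Col25a1 stood at 0.51 with Ptprz1, 0.41 with Ptprd and 0.03 with Ptprs.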

How the data were processed

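Visium FFPE probe counts of 8 diaphragm sections, each numbered in its title as a sample of its own, were taken as deposited by the authors, as whole-number counts of UMIs per gene and spot, not normalized, from Space Ranger 2.0.0 or 2.0.1 with probe set v1.0 and mm10. The other deposited values used were the spot positions. The scale factors of the images were not used. Groups came from the titles and genotypes, and p-values measure the spread between sections.

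Spots with at least 1000 UMIs were kept, sorted into muscle, center, intermediate and periphery, and summed per section and region. Spots are positions, so 4114 barcodes occurred in any section and 6 in all 8, and no doublet caller was run. Sums were fitted over all genes with edgeR 4.0.16 (filterByExpr, TMM, quasi-likelihood F test, R 4.3.3) with a threshold of 0.05 after Benjamini-Hochberg adjustment. Muscle was fitted over all 8 sections, regions over 24 sums with the section as a block, and tissue-ranked spots over 10 control sums. The fits were tested on simulated data. DESeq2 1.42.0, other scalings, filters, regions and left-out sections were alternatives. Counting intervals (95%, Poisson or exact binomial) cover counting error only. The 4 genes and all lists were chosen with earlier results of these data known. The named genes of a list are those that passed at an average log2 CPM of 4 or more, at most 4 a list and comparison by size. Most alike genes are the 3 with the highest Pearson r at an average log2 CPM of 2 or more (prior count 2).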

Additional observations from a re-analysis of the deposited data

Results flagged for a closer look

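The ratio of muscle center to intermediate muscle differed between groups for 3 genes by the interaction test in edgeR. For Col25a1 it was higher at E18.5 than at E14.5 in controls by 1.16 on the log2 scale, and for Ptprs by 0.21 and Ptprz1 by 0.55 in the same comparison. For Ptprz1 the ratio differed by -0.76 between CaV1.1 -/- and control and by -1.001 between bCat cKO and control, both at E18.5 and against the same 2 controls. The calls for Ptprs and Ptprz1 were lost in several alternatives given below, and that for Col25a1 when regions were set by distance. The raw ratio of Chrna1, a gene that defines the center, also was higher at E18.5 than at E14.5 in controls. It was lower in both mutants at E18.5 than in their controls.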

How the results depend on the processing

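The test was repeated under alternatives to each step, over the 4 genes in 24 comparisons. Of all 1073 values, 20 were CPM levels in muscle with spots of at least 500 UMIs, not differences. These 20 stayed close to the main levels and are counted as unchanged. In all 920 values were unchanged. For differences this means the same side of the threshold, and for results that had passed also the same direction. Results that had not passed could change sign and still count as unchanged. Col25a1 in the periphery at E14.5 (0.10) went as low as -0.061, and Col25a1 in the center ratio of bCat cKO (-1.15) as high as 0.45. Of the rest, 102 lost a call, 42 gained a call and 9 that had passed turned in sign. Col25a1 kept 233 of 263, Ptprs 225 of 264, Ptprd 213 of 263 and Ptprz1 229 of 263. The values of those that changed follow, as log2 differences, and the cause was not tested. For regions by distance, how much of the endplates the center holds was not tested either. With DESeq2, calls were lost for Ptprd (0.25) in the periphery at E14.5, Ptprd (0.20) in the periphery at E18.5, Ptprs (0.19) and Ptprz1 (0.59) in the center ratio by stage, Ptprz1 (-1.002) in the center ratio of bCat cKO, Ptprd (0.60) in the CaV1.1 -/- center at E18.5, Ptprd (0.69) in the bCat cKO center, and Ptprd (-0.33) in muscle against other spots at E18.5, while calls were gained for Ptprd (0.49) in CaV1.1 -/- muscle at E14.5, and Col25a1 (0.83) in CaV1.1 -/- intermediate muscle at E14.5. With DESeq2 size factors in edgeR, calls were lost for Ptprs (0.19) in the center ratio by stage, and Ptprd (0.51) in CaV1.1 -/- intermediate muscle at E14.5, while calls were gained for Ptprs (0.15) in the periphery at E14.5, and Ptprz1 (-0.63) in muscle against other spots at E18.5. With no filter on low counts, calls were lost for Ptprd (0.17) in the periphery at E18.5, and Ptprs (0.29) in mesothelium-ranked spots, while calls were gained for Ptprd (0.51) in CaV1.1 -/- muscle at E14.5, Ptprz1 (-0.64) in the periphery at E14.5, Col25a1 (-1.15) in the center ratio of bCat cKO, Ptprd (0.48) in the CaV1.1 -/- center at E14.5, and Col25a1 (0.84) in CaV1.1 -/- intermediate muscle at E14.5. With the upper 50% of spots as muscle, calls were lost for Ptprz1 (0.091) in stage in muscle, Col25a1 (0.70) in CaV1.1 -/- muscle at E14.5, and Ptprd (-0.021) in muscle against other spots at E18.5, while calls were gained for Ptprd (0.51) in CaV1.1 -/- muscle at E14.5, and Ptprz1 (-0.81) in muscle against other spots at E18.5, and the sign turned for Col25a1 (-0.088) in muscle against other spots at E18.5. With regions of 10%, calls were lost for Ptprs (0.23) in the center ratio by stage, and Ptprd (0.55) in CaV1.1 -/- intermediate muscle at E14.5. With regions of 25%, calls were lost for Ptprd (0.11) in the periphery at E18.5, Ptprs (0.18) and Ptprz1 (0.27) in the center ratio by stage, Ptprz1 (-0.53) in the center ratio of CaV1.1 -/- at E18.5, Ptprz1 (-1.02) in the center ratio of bCat cKO, and Ptprd (0.52) in CaV1.1 -/- intermediate muscle at E14.5, while calls were gained for Ptprs (0.15) in the periphery at E14.5. With regions by distance, calls were lost for Col25a1 (0.34), Ptprs (-0.012) and Ptprz1 (0.43) in the center at E14.5, Col25a1 (0.47) in the center at E18.5, Col25a1 (0.095) in the periphery at E18.5, Col25a1 (0.13) in the center ratio by stage, Ptprd (0.60) in the CaV1.1 -/- center at E18.5, Ptprd (0.45) and Ptprz1 (-0.11) in the bCat cKO center, and Ptprd (0.51) in CaV1.1 -/- intermediate muscle at E14.5, while calls were gained for Ptprs (0.33) in the periphery at E14.5, and Col25a1 (-1.36) in bCat cKO intermediate muscle, and the sign turned for Ptprz1 (-0.042) in the center at E18.5, Ptprd (-0.023) in the periphery at E18.5, Ptprs (-0.049) and Ptprz1 (-0.48) in the center ratio by stage, Ptprz1 (0.065) in the center ratio of CaV1.1 -/- at E18.5, and Ptprz1 (0.46) in the center ratio of bCat cKO. With control sections only, calls were lost for Ptprs (0.18) in the center ratio by stage, while calls were gained for Ptprs (0.16) in the periphery at E14.5. With only sections of Space Ranger 2.0.0, calls were lost for Col25a1 (0.75) in CaV1.1 -/- muscle at E14.5. With only sections of Space Ranger 2.0.1, calls were lost for Ptprd (0.45) in CaV1.1 -/- muscle at E18.5, and Ptprd (0.53) in bCat cKO muscle. With 10% of spots ranked by tissue, calls were lost for Col25a1 (-0.33) in mesothelium-ranked spots.

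The Schwann-ranked spots and the total UMIs were chosen after seeing the data. With the Schwann-ranked spots left out, calls were lost for Ptprs (0.19) and Ptprz1 (0.37) in the center ratio by stage, Ptprz1 (-0.54) in the center ratio of CaV1.1 -/- at E18.5, Ptprz1 (-0.97) in the center ratio of bCat cKO, and Ptprd (0.54) in CaV1.1 -/- intermediate muscle at E14.5. With total UMIs as the scale, calls were lost for Col25a1 (0.72) in CaV1.1 -/- muscle at E14.5, while calls were gained for Ptprd (0.52) in CaV1.1 -/- muscle at E14.5, Ptprs (0.65) in CaV1.1 -/- muscle at E18.5, Ptprs (0.40) in bCat cKO muscle, Ptprs (0.48) in the CaV1.1 -/- center at E18.5, Ptprs (0.42) in the bCat cKO center, Ptprs (0.79) in CaV1.1 -/- intermediate muscle at E18.5, and Ptprs (0.40) in bCat cKO intermediate muscle, and the sign turned for Ptprz1 (-0.16) in stage in muscle. With the 9 muscle genes as the scale, calls were lost for Col25a1 (-0.54) in bCat cKO muscle, and Ptprz1 (-0.53) in the bCat cKO center, while calls were gained for Ptprs (0.59), Ptprd (1.07) and Ptprz1 (1.11) in CaV1.1 -/- muscle at E14.5, Ptprs (1.51) in CaV1.1 -/- muscle at E18.5, Ptprs (0.70) in bCat cKO muscle, Col25a1 (1.01), Ptprs (0.53), Ptprd (0.9996) and Ptprz1 (0.71) in the CaV1.1 -/- center at E14.5, Ptprs (1.12) in the CaV1.1 -/- center at E18.5, Ptprs (0.79) in the bCat cKO center, Col25a1 (1.52), Ptprs (0.78) and Ptprz1 (1.35) in CaV1.1 -/- intermediate muscle at E14.5, Ptprs (1.74) in CaV1.1 -/- intermediate muscle at E18.5, and Ptprs (0.70) in bCat cKO intermediate muscle, and the sign turned for Ptprz1 (-2.60) in stage in muscle. Both scalings shift all genes, to a median over all genes of -3.19 for stage, 0.56 for CaV1.1 -/- at E14.5, 1.40 for CaV1.1 -/- at E18.5 and 0.52 for bCat cKO with the 9 muscle genes, and of -0.73, 0.01, 0.54 and 0.21 with total UMIs. Of the 9726, 308, 3819 and 1305 genes called in these comparisons in muscle, 50.7%, 25.7%, 41.1% and 36.1% were higher. With the 9 muscle genes 14207, 4939, 12468 and 3886 genes were called, 1.47%, 96.8%, 99.2% and 94.0% of them higher, and with total UMIs 11292, 355, 7997 and 2826, with 20.01%, 26.5%, 90.6% and 79.9% higher.

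Same replicate numbers at E14.5 and E18.5 belong to different embryos, so the numbers do not pair the samples. Deviations from the group means of same-numbered controls had a correlation of -0.33 and -0.32. With 2 controls at E18.5 their deviations mirror each other, so these values are not separate and do not decide on a pairing. With the replicate number as a block, calls were lost for Col25a1 (0.84) in CaV1.1 -/- muscle at E14.5, Ptprd (0.39) in CaV1.1 -/- muscle at E18.5, Col25a1 (-0.97) and Ptprd (0.47) in bCat cKO muscle, Ptprd (0.57) in the CaV1.1 -/- center at E18.5, Ptprd (0.46) in CaV1.1 -/- intermediate muscle at E14.5, Ptprd (0.42) in CaV1.1 -/- intermediate muscle at E18.5, and Ptprd (0.50) in bCat cKO intermediate muscle, and no other call changed where it was fitted. Without the section as a block in the region comparisons, calls were lost for Ptprd (0.22) in the periphery at E14.5, Ptprs (0.22) and Ptprd (0.20) in the periphery at E18.5, Ptprs (0.21) and Ptprz1 (0.60) in the center ratio by stage, Ptprz1 (-0.76) in the center ratio of CaV1.1 -/- at E18.5, Ptprz1 (-0.996) in the center ratio of bCat cKO, and Col25a1 (0.56) and Ptprd (-0.30) in muscle against other spots at E18.5.

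With each control section left out in turn, these results lost or gained a call, with ranges of Col25a1 0.67 to 0.75 in CaV1.1 -/- muscle at E14.5, Ptprd 0.36 to 0.55 in CaV1.1 -/- muscle at E18.5, Ptprd 0.44 to 0.62 in bCat cKO muscle, Ptprs 0.065 to 0.17, Ptprd 0.19 to 0.25 and Ptprz1 -0.83 to -0.36 in the periphery at E14.5, Col25a1 0.45 to 0.90, Ptprs 0.16 to 0.29 and Ptprd 0.13 to 0.26 in the periphery at E18.5, Ptprs 0.19 to 0.23 and Ptprz1 0.39 to 0.69 in the center ratio by stage, Ptprz1 -0.86 to -0.66 in the center ratio of CaV1.1 -/- at E18.5, Ptprz1 -1.09 to -0.90 in the center ratio of bCat cKO. The other ranges were Ptprd 0.51 to 0.71 in the CaV1.1 -/- center at E18.5, Ptprd 0.52 to 0.56 in CaV1.1 -/- intermediate muscle at E14.5, Ptprd 0.40 to 0.55 in CaV1.1 -/- intermediate muscle at E18.5, Ptprd 0.47 to 0.62 in bCat cKO intermediate muscle, Col25a1 0.30 to 0.86, Ptprd -0.39 to -0.26 and Ptprz1 -1.02 to -0.21 in muscle against other spots at E18.5, Ptprd 0.37 to 0.54 in tendon-ranked spots, Col25a1 -0.60 to -0.49 in endothelium-ranked spots, Col25a1 0.45 to 0.71 in Schwann-ranked spots and Ptprs 0.31 to 0.41 and Ptprd 0.17 to 0.40 in mesothelium-ranked spots. A mutant section could not be left out, since it is the whole of its group. Col25a1 rests on 294 to 1172 UMIs in muscle per section, Ptprz1 on 193 to 1010, Ptprd on 785 to 2943 and Ptprs on 3298 to 10091, and spots of 5 µm sections count few of each.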
